A study of Saccharomyces cerevisiae with 6 samples.

Results

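The mitochondrial ribosome is built from 2 rRNAs and 1 protein, VAR1, made inside the organelle, and from a large set of proteins that are encoded in the nucleus, made in the cytosol and imported. These nuclear genes were described here by their names: 64 of 5605 nuclear mRNA features (of 5667 features in all) had a name starting with MRPL, with MRPS, or with MRP or RSM and a digit. Of these, 32 were MRPL genes, and the other 32 comprised 9 MRPS genes, 12 MRP genes and 11 RSM genes. The mitoribosome translates the few membrane subunits of the respiratory chain and ATP synthase that mitochondrial DNA encodes, so yeast needs it for growth on a respired carbon source and much less while it ferments glucose. Many mRNAs for mitoribosomal proteins are known in yeast as targets of the RNA-binding protein Puf3, and many are found at the mitochondrial surface. The name does not always give the subunit: MRP7, MRP20 and MRP49 belong to the large subunit, and MRP8 is, despite its name, not known as a ribosomal protein. The known places thus gave 35 large-subunit genes, 28 small-subunit genes and MRP8.

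The RNA came from a mitochondrial preparation of the haploid yeast laboratory strain CEN.PK113-7D (Saccharomyces cerevisiae), for which the labels name no further allele. Cells of 3 cultures labelled ethanol, whose medium the growth protocol calls ethanol-glycerol, and of 3 glucose cultures were collected in mid-exponential growth in synthetic medium. Throughout, the values of a group are given in the order of its replicates 1, 2 and 3. All RNA was given a poly(A) tail by an enzyme and then sequenced directly as RNA on a Nanopore instrument. Whole-cell RNA was not analysed here, so more of an mRNA in the cell and more of it isolated with the mitochondria cannot be told apart.

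Values were deposited as CPM, reads per 1000000 reads assigned to listed features. Reads assigned to the ENO2 feature alone took between 2.63% and 49.9% of a library, and all other nuclear mRNA between 0.977% and 13.0%. The source of the ENO2 reads was not tested. Each member is therefore given here in nuclear CPM, its reads per 1000000 nuclear mRNA reads without ENO2. The steps of the CPM values put such reads at 8284, 19087 and 63081 for ethanol and at 121147, 97474 and 107311 for glucose. A single read was therefore worth 121, 52.4 and 15.9 nuclear CPM in the ethanol libraries and between 8.25 and 10.3 in the glucose libraries. A count of 0 allows up to 3 reads, a limit of 362, 157 and 47.6 nuclear CPM for the ethanol libraries that covers counting error only. The markers of carbon source went with the labels: JEN1, ADH2 and ICL1 were higher in each ethanol library than in any glucose library, and HXT3 and HXT4 were lower. Mitochondrially encoded features took 3.15% to 12.6% of the CPM in ethanol and 6.41% to 7.50% in glucose.

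Mitoribosomal protein mRNA took a larger share of the nuclear mRNA in each ethanol library than in any glucose library. The 64 members together made up 0.567%, 0.626% and 1.10% in ethanol, against 0.435%, 0.424% and 0.419% in glucose. The group means were 0.765% ± 0.293 and 0.426% ± 0.00801 (SD, n = 3), a geometric ratio of 1.72 and a log2 difference of 0.78 ± 0.30 (SE). The groups did not overlap, and the two-sided exact permutation test gave p = 0.1, the smallest p that 3 libraries against 3 can give. The glucose libraries lay close together, and ethanol replicate 3 stood well above the other ethanol libraries. Behind these shares were 47, 119.5 and 694.5 member reads for ethanol, compared with 526.83, 413.5 and 449.83 for glucose (the deposited values give some features a fraction of a read). The 95% Wilson interval of ethanol replicate 1, 0.427% to 0.754%, reached into the intervals of the glucose libraries, while that of ethanol replicate 2, 0.526% to 0.751%, and that of replicate 3, 1.02% to 1.19%, did not. Without MRP8, described below, the interval of ethanol replicate 2, 0.417% to 0.620%, reached into those of the glucose libraries too. All these intervals cover counting error only. Short features as a whole took a larger share of nuclear mRNA in ethanol. Against features of like length, without cytosolic ribosomal protein genes but with respiratory chain genes kept in, the groups overlapped. The values are given under feature length.

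The direction depends on what the members are counted against. As a share of all deposited CPM, or of nuclear mRNA with ENO2 included, the same sums were lower in ethanol, with log2 differences of -0.62 (exact permutation p = 0.9) and -1.19 (exact permutation p = 0.4). On the first of these scales the arithmetic means had the other sign, at 512 deposited CPM in ethanol and 457 in glucose. Both totals hold ENO2, whose part of the CPM was 4.94%, 49.9% and 21.9% in ethanol but no more than 6.81% in glucose. All other nuclear mRNA took 0.977%, 7.14% and 9.39% of the CPM in ethanol and 13.0%, 9.33% and 9.82% in glucose. It was thus lowest in ethanol replicate 1, where ENO2 was low too. The part of either in these differences was not tested.

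**Figure D1:**
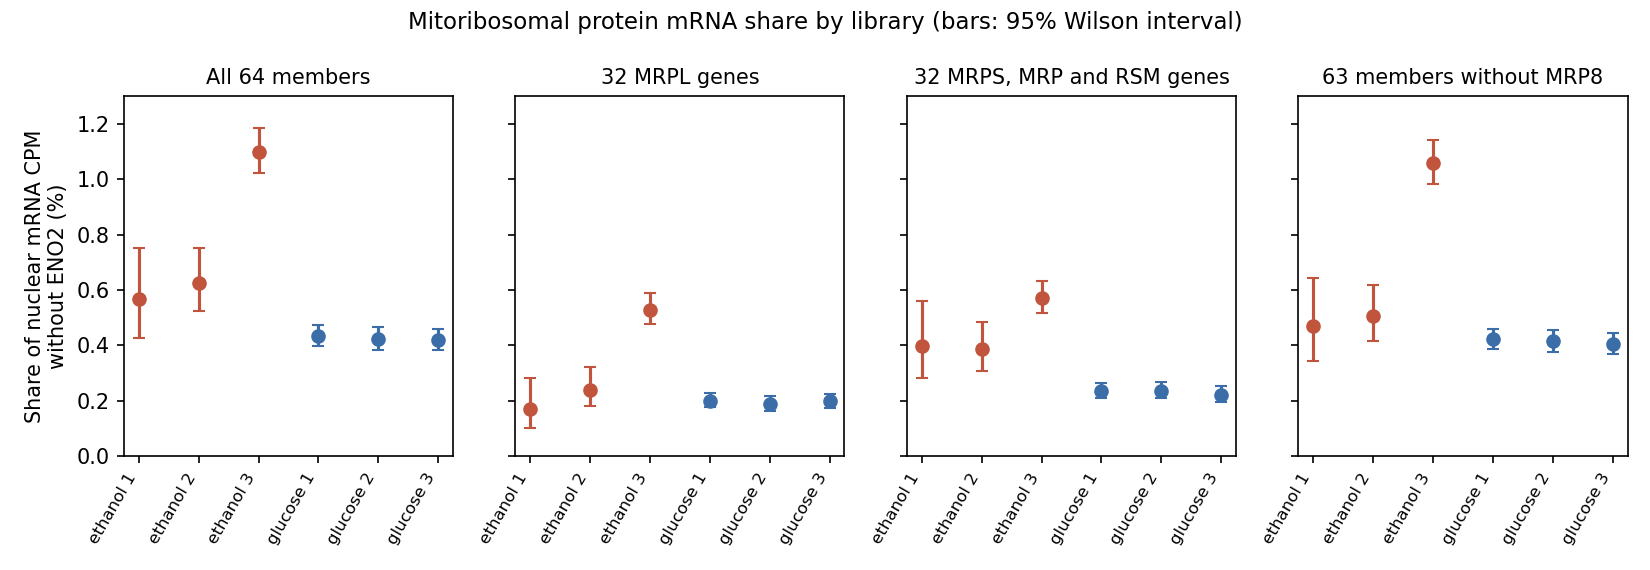
The vertical axis is the share of nuclear mRNA CPM without ENO2, in percent, for each library on the horizontal axis (red, ethanol; blue, glucose), and bars are 95% Wilson intervals. In the panel of all 64 members the ethanol libraries sit at 0.567% to 1.10% and the glucose libraries at 0.419% to 0.435%, and in the panel of the 32 MRPL genes ethanol replicate 1 falls below the glucose libraries.

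The share was also taken for the MRPL genes and for the other members, which include MRP8. The 32 MRPL genes made up 0.169%, 0.238% and 0.529% in ethanol, against 0.200%, 0.187% and 0.197% in glucose. The groups overlapped, since ethanol replicate 1, with 14 MRPL reads, lay below all glucose libraries (log2 difference 0.51 ± 0.49 SE, exact permutation p = 0.4). Without ethanol replicate 3 the log2 difference of the MRPL genes was 0.04. The other 32 members took 0.398%, 0.388% and 0.571% in ethanol and 0.235%, 0.237% and 0.222% in glucose, without overlap (log2 difference 0.95 ± 0.18 SE, exact permutation p = 0.1). Without MRP8 the log2 difference of the other members was 0.67 (exact permutation p = 0.1). The direct comparison, the ratio of MRPL CPM to that of the other members, overlapped between the groups (exact permutation p = 0.4), so the sets were not shown to differ. Over the 7 shares and ratios tested, the Benjamini-Hochberg adjusted p was 0.14 for each exact permutation p of 0.1.

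The member with the largest fitted change of the 9 that could be modelled was MRP8. MRP8 (chromosome 11, 184901 to 185560, plus strand, on the CEN.PK113-7D assembly of the tables) had 966, 1205 and 428 nuclear CPM in ethanol, against 132, 92.3 and 130 in glucose. It made up 17.0%, 19.2% and 3.89% of the members' CPM in the ethanol libraries and at most 3.11% in glucose. With MRP8 left out, the remaining 63 members took 0.471%, 0.506% and 1.06% in ethanol and 0.422%, 0.415% and 0.406% in glucose, still without overlap, with a log2 difference of 0.61 (exact permutation p = 0.1). Grouped by known place, large-subunit genes took 0.205%, 0.275% and 0.569% in ethanol and 0.219%, 0.218% and 0.217% in glucose. Small-subunit genes took 0.266%, 0.231% and 0.489% in ethanol and 0.203%, 0.197% and 0.189% in glucose.

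The balance of the subunits was nearly even in glucose. The ratio of MRPL CPM to that of the other members was 0.852, 0.790 and 0.890 in glucose and 0.424, 0.615 and 0.926 in ethanol replicates 1 to 3, with overlap. By known place and without MRP8, the large to small ratio was 1.08, 1.11 and 1.15 in glucose and 0.773, 1.19 and 1.16 in ethanol (log2 difference -0.12, exact permutation p = 1). The lone low value, in ethanol replicate 1, rested on 39 reads of both subunits.

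Within each subunit, proteins with a bacterial counterpart were set apart from those specific to mitochondrial ribosomes, which grew around the ancestral core. The 17 small-subunit genes with a bacterial counterpart took 0.169%, 0.162% and 0.354% in ethanol and 0.126%, 0.121% and 0.116% in glucose. The 11 mitochondria-specific small-subunit genes took 0.0966%, 0.0681% and 0.135% in ethanol and 0.0764%, 0.0759% and 0.0736% in glucose. The groups were apart in the first set and overlapped in the second. The 23 large-subunit genes with a bacterial counterpart took 0.145%, 0.210% and 0.384% in ethanol and 0.141%, 0.136% and 0.165% in glucose, and the 12 mitochondria-specific ones took 0.0604%, 0.0655% and 0.185% against 0.0784%, 0.0816% and 0.0522%. Both large-subunit sets overlapped between the groups. Differences between these 4 sets were not tested.

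Single members were thinly covered: 55 of the 64 had a mean under 10 deposited CPM, and no member had more than 35.5 reads in a library. These 55 together made up 0.350%, 0.338% and 0.826% of nuclear mRNA in ethanol, against 0.340%, 0.335% and 0.330% in glucose. Their groups overlapped (log2 difference 0.46 ± 0.42 SE, exact permutation p = 0.2), with ethanol replicate 3 alone far above glucose. The line at 10 CPM uses the mean over these same libraries, so it leaves out members partly because they are high in 1 group. Reads were found for 29, 47 and 64 members in ethanol and for 63 in each glucose library. The same held for 45.2%, 65.2% and 85.8% of all nuclear features in ethanol and 90.1% to 92.6% in glucose. The mean over the 3 ethanol libraries was higher than that over the glucose libraries for 47 members and lower for 17, with a median ratio of 1.32. Over all 5604 nuclear features, 44.8% had the higher mean in ethanol and the median ratio was 0.862. On the log2(nuclear CPM + 10) scale the members' median difference had the other sign, -0.05, beside -0.47 over all nuclear features. All 3 ethanol libraries lay above all 3 glucose libraries for 15 members, 23.4% of them, beside 12.8% of all nuclear features. No member had all ethanol libraries below glucose, beside 21.3% of all nuclear features. The 15 were MRP8, 7 large-subunit genes (MRPL6, MRPL11, MRPL23, MRPL36, MRPL37, MRP20 and MRP49) and 7 small-subunit genes (MRPS12, MRPS18, MRP10, MRP17, RSM7, RSM10 and RSM27). For MRPL11, MRPL23, MRPL36, MRP20, MRP49, MRPS18, MRP10 and RSM10 the value in ethanol replicate 1 was a single read, worth 121 nuclear CPM. For these genes the lack of overlap hung on that read. The ratio of means was highest, at 7.75, for MRPL28, a mitochondria-specific large-subunit protein, which had 0, 210 and 254 nuclear CPM in ethanol and 49.5, 10.3 and 0 in glucose. Its groups overlapped, and the ratio rested on few reads.

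**Figure D2:**
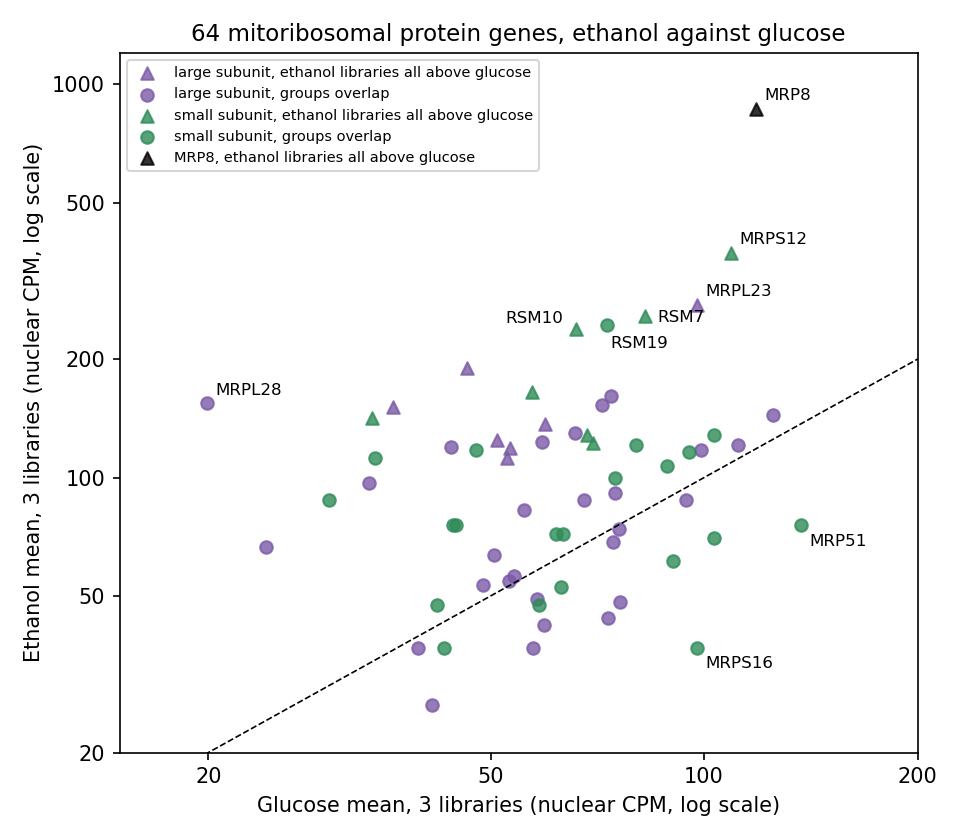
Each point is 1 of the 64 genes, with its mean over 3 glucose libraries on the horizontal axis and over 3 ethanol libraries on the vertical axis, both in nuclear CPM on log scales, and a dashed line of equal means. Of the 64, 47 lie above the line, MRP8 lies farthest up, and the 15 triangles mark genes whose ethanol libraries were all above the glucose libraries.

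The library with the most nuclear reads of its group, ethanol replicate 3, carried higher values for most of the list. In it, 57 of the 64 members lay above all glucose libraries, beside 32.8% of all nuclear features, and 1 member, RSM22, lay below them, beside 35.8%. RSM22, a methyltransferase-like protein of the small subunit, had 63.4 nuclear CPM there and 74.3, 113 and 83.9 in glucose. The others not above the glucose range were MRPL17, MRPL19, MRPL22, MRPL24, MRPL50 and MRPS35. This is a count within 1 library and has no replicate check. Both other ethanol libraries had no read for 12 members, among them MRPS16, RSM18, MRPL13 and MRPL32, and their shallow depth allows each of these up to 362 and 157 nuclear CPM.

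**Figure D3:**
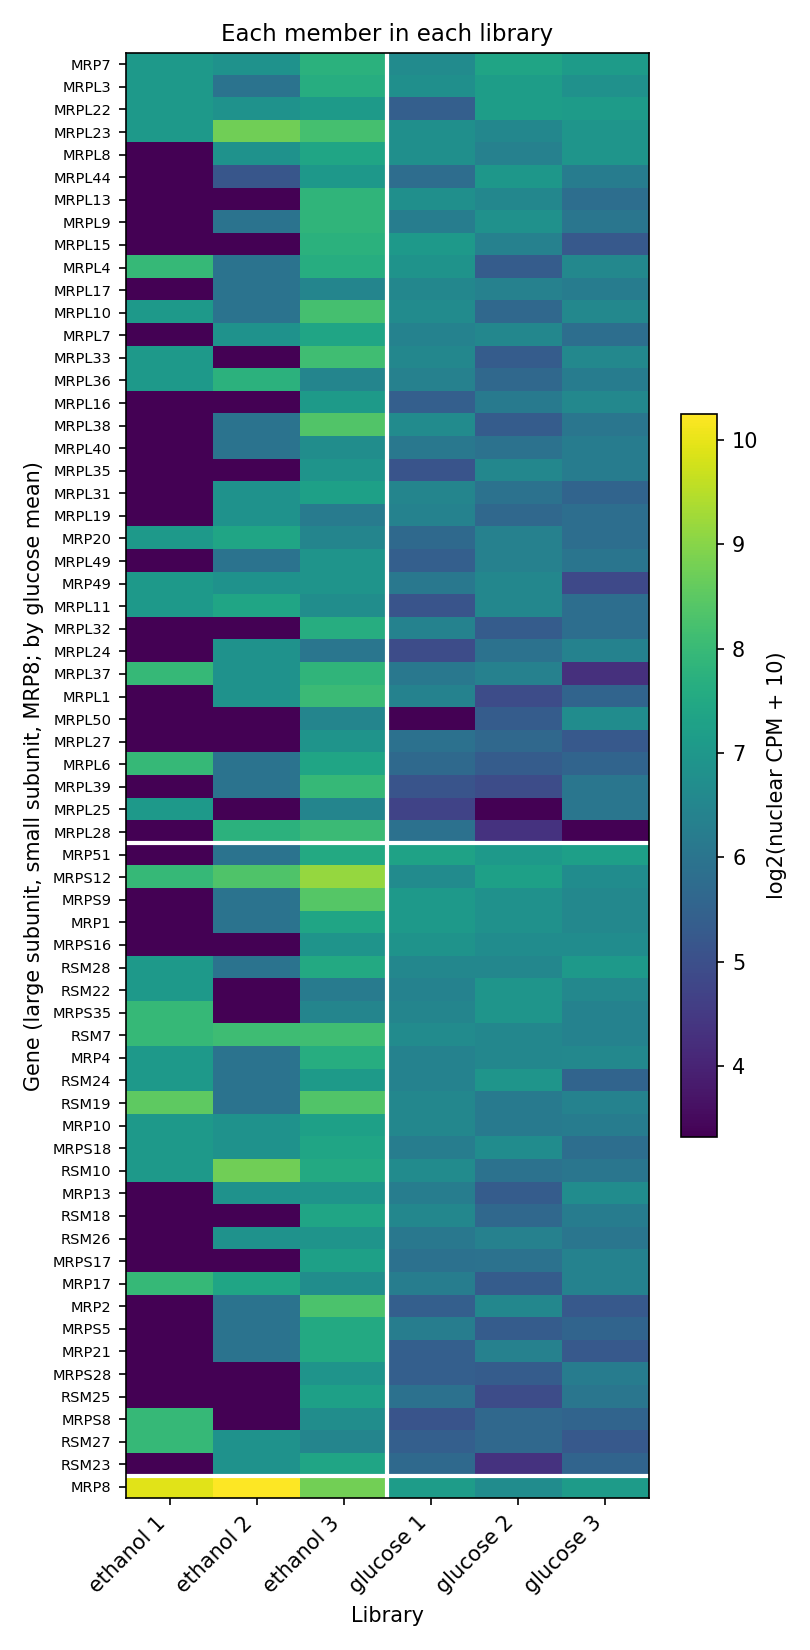
Rows are the 64 genes (large subunit, small subunit, then MRP8, each by glucose mean), columns are the 6 libraries, and colour is log2(nuclear CPM + 10). Ethanol replicate 3 is brighter than the glucose columns over most rows, while the darkest cells of ethanol replicates 1 and 2 are genes without a read.

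Only 9 members reached a mean of 10 deposited CPM and entered the model across all genes, limma on log2(nuclear CPM + 10), in which the median log2 fold change of the 1664 features tested was -0.39. Of these 9, 3 passed a Benjamini-Hochberg adjusted p of 0.05, all higher in ethanol, beside 16.1% of all tested features called higher and 12.5% called lower. They were MRP8, MRPS12 and RSM7. As the filter keeps members partly through the group where they are high, the 3 of 9 is no measure of the 64. Without the filter, 2 of 64 members, MRP8 and RSM7, passed, beside 4.48% of all features called higher. With limma voom on the recovered reads, 6 of 9 passed, all higher (MRP8, MRPL23, MRPS12, RSM7, RSM10 and RSM19), beside 21.7% of tested features called higher and 20.4% called lower. On the deposited CPM scale no member passed, beside 2.1% of tested features called higher.

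MRP8 rose by 2.66 ± 0.45 on the log2 scale (SE; adjusted p from limma 0.00559), and all 3 ethanol libraries were above every glucose library. On the deposited CPM scale its log2 fold change was 1.32 (limma adjusted p = 0.422), and it passed in the other 13 alternative fits.

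The small-subunit genes included the other called members. MRPS12 (chromosome 14, 684039 to 684500, minus strand) encodes the counterpart of bacterial S12, a protein of the decoding centre. It had 241, 314 and 563 nuclear CPM in ethanol and 90.8, 144 and 93.2 in glucose, and rose by 1.62 ± 0.46 on the log2 scale (SE; adjusted p from limma 0.0354). RSM7 (chromosome 10, 633217 to 633936, minus strand) encodes the counterpart of S7, which binds the rRNA of the subunit's head. It had 241, 262 and 269 nuclear CPM in ethanol and 90.8, 82.1 and 74.5 in glucose, and rose by 1.54 ± 0.42 on the log2 scale (SE; adjusted p from limma 0.0318). The ethanol values of RSM7 were close together, although they rested on 2, 5 and 17 reads. Both calls depended on the setting: MRPS12 was lost in 8 of 14 alternative fits and RSM7 in 6, each with the same direction.

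RSM10, the counterpart of S10, had 121, 419 and 174 nuclear CPM in ethanol and 90.8, 51.3 and 55.9 in glucose, without overlap (log2 fold change 1.56, limma adjusted p = 0.097). Its ethanol values rested on 1, 8 and 11 reads. RSM19, the counterpart of S19, lies next to MRPS12 on the same strand (684730 to 685005) and had 362, 52.4 and 317 nuclear CPM in ethanol and 82.5, 61.6 and 74.5 in glucose, with overlap (limma adjusted p = 0.232). MRPS9, the counterpart of S9, had 0, 52.4 and 333 in ethanol and 124, 103 and 83.9 in glucose (log2 fold change -0.91, limma adjusted p = 0.593). For MRPS9 the deepest ethanol library was far above glucose and both others were below it.

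MRP51, a small-subunit protein linked in yeast to translation of the COX2 and COX3 mRNAs, had the highest glucose mean of the list, 137 ± 12.9 nuclear CPM (SD, n = 3). It had 0, 52.4 and 174 in ethanol (log2 fold change -1.59 ± 1.14 SE, limma adjusted p = 0.294). Ethanol replicate 3 was thus above all glucose libraries, and ethanol replicates 1 and 2 were below them. MRP10, a small cysteine-rich protein of the small subunit, had 121, 105 and 143 in ethanol and 82.5, 61.6 and 65.2 in glucose, without overlap. Its ethanol values rested on 1, 2 and 9 reads. MRP2, the counterpart of S14, had 0, 52.4 and 301 in ethanol and 33.0, 82.1 and 28.0 in glucose.

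Of the large-subunit genes, MRPL23 and MRP7 entered the model. MRPL23, the counterpart of L13, had 121, 419 and 285 nuclear CPM in ethanol and 99.1, 82.1 and 112 in glucose, without overlap (log2 fold change 1.25 ± 0.55 SE, limma adjusted p = 0.115). MRP7, the counterpart of L27, which lies near the peptidyl transferase centre, had 121, 105 and 206 in ethanol and 90.8, 154 and 130 in glucose (log2 fold change 0.16, limma adjusted p = 0.809). The groups were thus apart for MRPL23 and overlapped for MRP7, in which ethanol replicate 3 alone was above all glucose libraries. The ethanol values rested on 1, 8 and 18 reads for MRPL23 and on 1, 2 and 13 for MRP7. The gap between the groups for MRPL23 thus hung on 1 read in ethanol replicate 1.

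The remaining large-subunit genes named for their level per length had too few reads for the model. MRPL37, a mitochondria-specific protein, had 241, 105 and 222 nuclear CPM in ethanol and 57.8, 71.8 and 9.32 in glucose, without overlap. MRPL33, the counterpart of L30, had 121, 0 and 269 in ethanol and 82.5, 30.8 and 83.9 in glucose. MRPL38, the counterpart of L14, had 0, 52.4 and 317 in ethanol and 90.8, 30.8 and 55.9 in glucose, and MRPL39, the counterpart of L33, had 0, 52.4 and 238 in ethanol and 24.8, 20.5 and 55.9 in glucose. In each of the last 3 genes the ethanol libraries spanned the glucose range, and ethanol replicate 3 was the highest of the 6.

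In glucose the mean per kilobase of feature ran from 21.9 nuclear CPM per kilobase for RSM23 to 267 for MRPS16, with a median of 93.8. The 4 highest values belonged to short genes, MRPS16 (366 bases, 267), RSM19 (276 bases, 264), MRPL33 (261 bases, 252) and MRP10 (288 bases, 242). Length did not fix the order: MRPL39, the shortest member (213 bases), had 158 nuclear CPM per kilobase, below MRPS12 (462 bases, 236) and MRPL23 (492 bases, 198). A direct RNA read stands for 1 molecule or fragment whatever its length, so dividing by length raises short genes relative to long ones. Across the 63 members without MRP8, Pearson's r of log2(nuclear CPM + 10) was 0.213 to 0.367 between glucose libraries and 0.0483 to 0.289 between ethanol libraries, given as a description over genes that share each library and its depth.

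Feature length moved with the carbon source. The 64 features were short, 213 to 1887 bases with a median of 715.5, against a median of 1251 bases over all nuclear features. In the ethanol libraries 14.5% to 17.4% of nuclear mRNA CPM came from features in the length range of the 22 shortest members, and 8.44% to 8.89% in glucose. These 22 members, 213 to 534 bases, took 0.217%, 0.194% and 0.426% of nuclear mRNA in ethanol and 0.128%, 0.119% and 0.119% in glucose. The 21 longest, 846 to 1887 bases, took 0.145%, 0.120% and 0.322% in ethanol and 0.160%, 0.163% and 0.167% in glucose, so the groups were apart for the shortest members and overlapped for the longest.

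Set against nuclear features of the same length range without ENO2 and cytosolic ribosomal protein genes, the groups overlapped in each length class. The 22 shortest took 1.38%, 1.23% and 3.26% of that CPM in ethanol and 1.96%, 1.90% and 2.02% in glucose, a log2 difference of -0.15 (exact permutation p = 1). The 21 of middle length, 552 to 837 bases, took 1.61%, 2.22% and 3.36% in ethanol and 1.73%, 1.79% and 1.78% in glucose (log2 difference 0.37, exact permutation p = 0.4). The 21 longest took 0.336%, 0.277% and 0.758% in ethanol and 0.353%, 0.367% and 0.372% in glucose (log2 difference 0.18, exact permutation p = 1). On this measure, chosen after seeing the data, ethanol replicate 3 was above glucose in all 3 classes, and ethanol replicates 1 and 2 were below it in the shortest and the longest class. The measure was not computed with cytosolic ribosomal protein genes, which were lower in ethanol, kept in, so the overlap is given for this denominator only. That denominator kept respiratory chain genes (median length 454.5 bases), which took 2.81% to 4.62% of nuclear mRNA in ethanol and 0.854% to 0.898% in glucose. The part of either list in the overlap was not tested. Of all nuclear mRNA, the 21 of middle length took 0.205%, 0.312% and 0.354% in ethanol and 0.148%, 0.142% and 0.133% in glucose, without overlap. All features of their length range took 14.4%, 15.7% and 12.6% in ethanol and 11.7%, 11.4% and 10.8% in glucose.

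**Figure D4:**
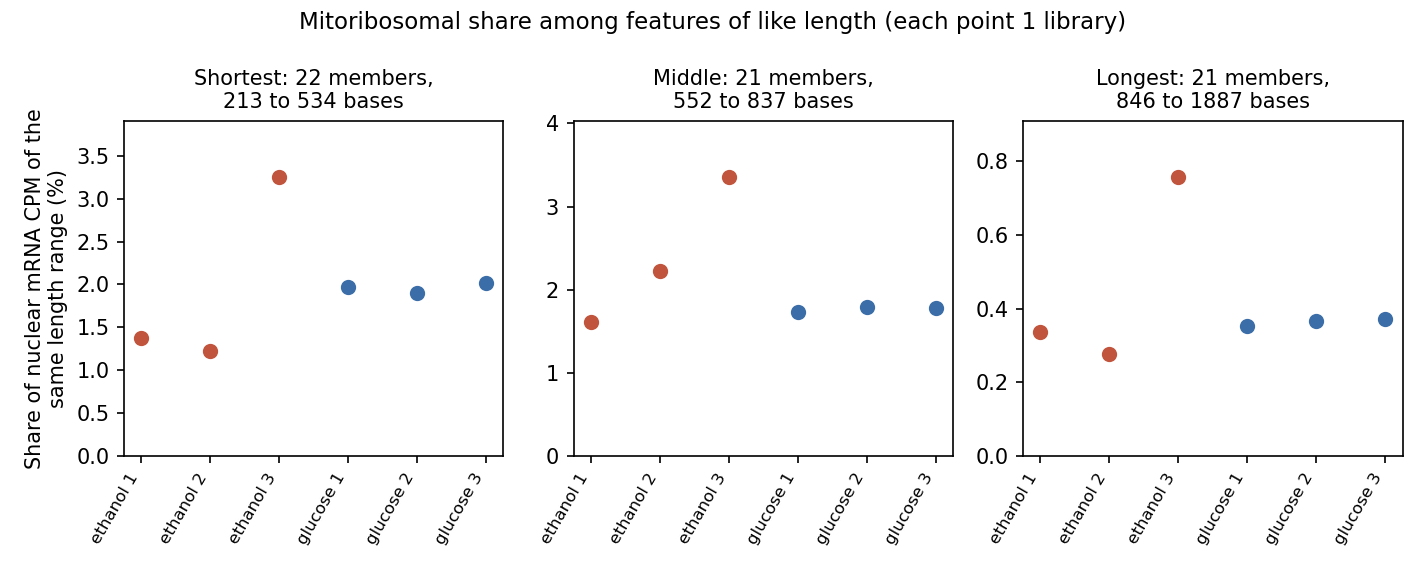
Each panel holds the members of 1 class of feature length, and the vertical axis is their share, in percent, of the nuclear mRNA CPM of features in the same length range without ENO2 and cytosolic ribosomal protein genes (red, ethanol; blue, glucose; each point 1 library). Ethanol replicate 3 is the highest point in every panel, at 3.26%, 3.36% and 0.758%, and the other ethanol libraries lie below the glucose points in the shortest and the longest class.

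Compared with the respiratory chain, the mitoribosomal list was lower in ethanol. The 38 nuclear genes of respiratory complexes II to V and cytochrome c that matched by name took 3.17%, 2.81% and 4.62% of nuclear mRNA in ethanol and 0.898%, 0.858% and 0.854% in glucose. The ratio of mitoribosomal to respiratory chain CPM was 0.179, 0.223 and 0.238 in ethanol and 0.484, 0.494 and 0.491 in glucose, without overlap (log2 difference -1.21 ± 0.13 SE, exact permutation p = 0.1). Thus for each respiratory chain read there were fewer mitoribosomal reads in every ethanol library. In the model across all genes, 27 of 37 respiratory chain genes tested passed as higher, beside 16.1% of all tested features. Their median length was 454.5 bases, shorter than that of the mitoribosomal genes, and the part of length in this ratio was not tested.

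Compared with the cytosolic ribosome, the mitoribosomal list was higher in ethanol. The 128 features named as cytosolic ribosomal proteins (RPL, RPS or RPP and a digit) took 8.14%, 7.85% and 8.85% in ethanol and 13.8%, 15.3% and 14.6% in glucose. The ratio of mitoribosomal to cytosolic ribosomal CPM was 0.0697, 0.0797 and 0.124 in ethanol and 0.0315, 0.0278 and 0.0287 in glucose, a log2 difference of 1.60 ± 0.26 (SE, exact permutation p = 0.1). The name rule takes in RPP1, a subunit of RNase P, and many of these genes are near-identical pairs whose reads can be split, which does not touch their sum.

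**Figure D5:**
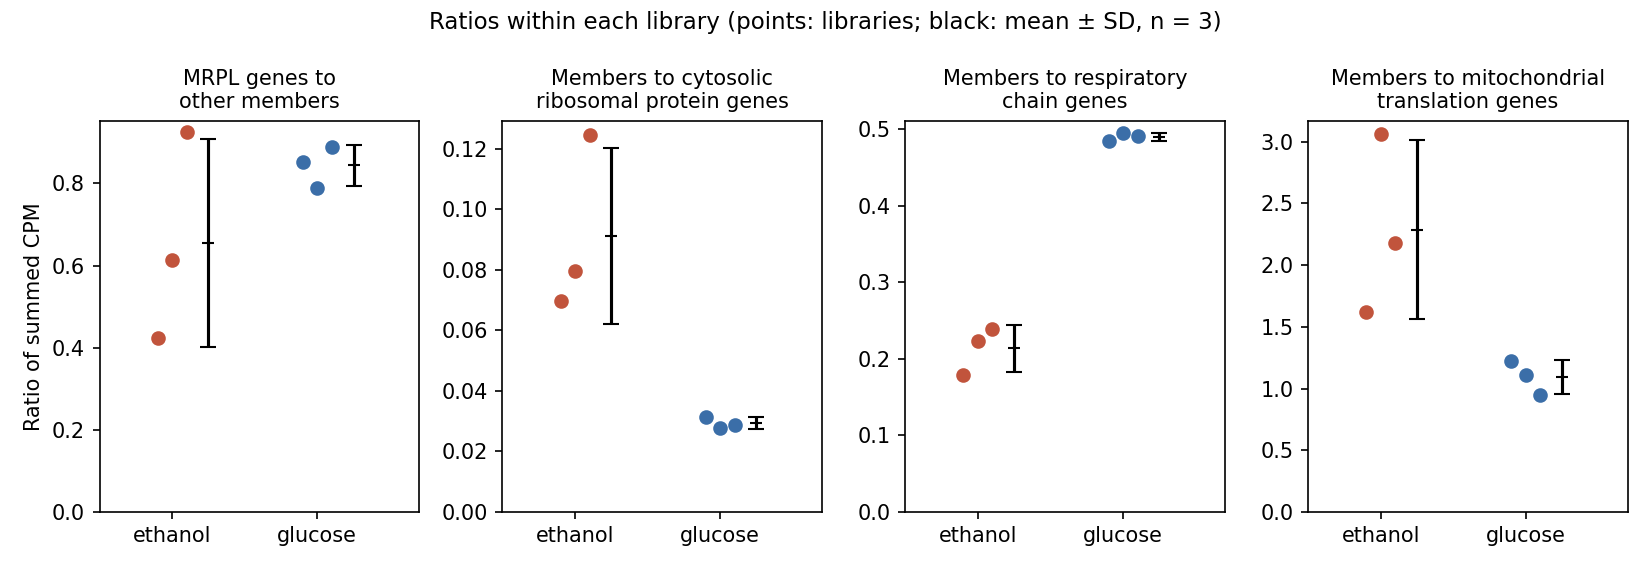
Each panel plots a ratio of summed CPM for the 3 ethanol (red) and 3 glucose (blue) libraries, with the mean and SD in black. Ethanol is lower for the ratio to respiratory chain genes (0.179 to 0.238 against 0.484 to 0.494), higher for the ratios to cytosolic ribosomal and to mitochondrial translation genes, and overlaps glucose for the ratio of MRPL genes to the other members.

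For a list of 51 other genes linked to mitochondrial translation the groups overlapped. The list held mainly genes for elongation, initiation and release factors, mitochondrial tRNA synthetases, translational activators and rRNA-modifying or organelle transcription enzymes. It also held PUF3, OXA1, MDM38, MBA1, MTG1 and MTG2. The 51 genes took 0.350%, 0.204% and 0.505% in ethanol and 0.355%, 0.383% and 0.443% in glucose, with overlap. The ratio of mitoribosomal to these genes was 1.62, 3.06 and 2.18 in ethanol and 1.23, 1.11 and 0.947 in glucose, without overlap (log2 difference 1.02 ± 0.29 SE, exact permutation p = 0.1). Of the 51 genes, 9 entered the model and none passed in either direction, beside 16.1% of all tested features called higher and 12.5% called lower. TUF1, the elongation factor Tu, had 241, 105 and 1126 nuclear CPM in ethanol and 371, 482 and 494 in glucose (limma adjusted p = 0.606). These genes had a median length of 1557 bases, longer than the mitoribosomal genes, and the part of length in this ratio was not tested.

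Of 17 further mitoribosomal genes whose names the rule misses, 12 matched a feature. They took 0.0724%, 0.120% and 0.193% in ethanol and 0.107%, 0.0846% and 0.0964% in glucose, with overlap. Of the 3 that entered the model none passed, beside 28.6% of all tested features called in either direction. EHD3, a small-subunit protein related to hydrolases of valine breakdown, had 241, 367 and 269 nuclear CPM in ethanol and 149, 92.3 and 121 in glucose (limma adjusted p = 0.0574). NAM9, the counterpart of S4, had 0, 52.4 and 111 in ethanol and 182, 133 and 205 in glucose (limma adjusted p = 0.153). The groups were apart for both genes, in opposite directions. Added to the 64, MRP8 among them, the 12 genes brought the log2 difference of the share from 0.78 to 0.71. The share with the 12 genes added and MRP8 left out was not tested. Without MRP8 and these genes, ethanol replicate 1 had 0.471% and glucose replicate 1 had 0.422%. For the 12 genes the order of these libraries was the reverse, at 0.0724% and 0.107%. A lack of overlap was therefore not shown for the list with the 12 genes and without MRP8.

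The mitochondrially encoded parts of the same ribosome were on another scale. VAR1, its only protein made in the organelle, had 34.2, 19.9 and 25.8 deposited CPM in ethanol, against 38.7, 33.1 and 35.0 in glucose. The summed CPM of the 64 nuclear genes was 1.62, 22.4 and 40.1 times that of VAR1 in ethanol and 14.6, 12.0 and 11.8 times in glucose. This ratio spread more widely in ethanol than in glucose and overlapped, with the lowest value in the library that had the smallest nuclear share.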

How the data were processed

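Cells were turned into spheroplasts and homogenised, and mitochondria were collected by differential centrifugation, per the labels' protocols. Their RNA was column-purified, tailed with E. coli poly(A) polymerase and sequenced with the Direct RNA kit SQK-RNA002. The submitters' processing notes name STAR 2.5.4a, SAMtools, featureCounts and edgeR, with no role or order; aligner settings and filters are not given in the sources used here. The authors deposited CPM values, 1 table per carbon source with 3 replicate columns, and each column sums to 1000000. Positions follow the tables, whose chromosomes are those of a CEN.PK113-7D assembly. Between 89.1% and 94.9% of nonzero values were whole reads (within 0.01 read), under the bar of 95%, so no count test was made. No member's feature overlapped another feature, and all 64 names were found in the R64 gene table.

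Nuclear mRNA features without ENO2 were rescaled to 1000000. Shares and ratios were compared on the log2 scale with two-sided exact permutation tests (Python 3.11.15, numpy 2.4.6, pandas 2.3.3, scipy 1.17.1, matplotlib 3.10.9). Features with a mean of at least 10 deposited CPM were tested with limma 3.58.1 in R 4.3.3 (intensity trend, pseudocount 10 nuclear CPM, Benjamini-Hochberg over all 1664, threshold 0.05). On simulated data with 200 of 1664 genes changed 8-fold at the real depths, 72.5% of these were called in the right direction and 6.45% of calls were false. The simulated counts came from the mean glucose profile, with the same dispersion for all genes and libraries. These rates therefore need not hold for smaller changes or for the real spread of the ethanol libraries. Members named in the text were the 10 highest by CPM per kilobase and all 9 tested; others, such as MRPL28, RSM22, RSM23, TUF1, EHD3, NAM9 and members in lists of counts, were chosen after their values were seen. The members and gene lists were chosen with earlier results of these data known. The labels call the replicates biological triplicate cultures and give no batch. Alternatives were other denominators, filters, pseudocounts, scalings, voom, a replicate block and leaving out libraries. Every value column had a sample. Sequences were not used here.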

Additional observations from a re-analysis of the deposited data

How the results depend on the processing

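The share of all members, of MRPL genes and of the other members turned from higher to lower in ethanol when counted against all deposited CPM (log2 differences -0.62, -0.88 and -0.45) or against nuclear mRNA with ENO2 (-1.19, -1.46 and -1.02). The 22 shortest members were also lower, by -0.15, as a share of features of like length without cytosolic ribosomal protein genes. This alternative covers those members only and was chosen after seeing the data. Every other alternative run for the 7 shares and ratios kept the direction, none could pass 0.05, and the cause of the reversals was not tested. Leaving out 1 library gave log2 differences of 0.48 to 0.96 for all members, 0.04 to 0.87 for MRPL genes, 0.77 to 1.05 for the other members, -0.72 to -0.16 for MRPL to other members, 1.35 to 1.77 for the ratio to cytosolic ribosomal genes, -1.29 to -1.09 for that to the respiratory chain and 0.79 to 1.25 for that to mitochondrial translation genes. With ethanol replicate 3 alone against glucose, chosen after seeing the data, the value for all members was 1.37. The 9 members of at least 10 CPM alone, MRP8 among them, gave 1.50, and the 55 under it gave 0.46 with overlapping groups (exact permutation p = 0.2). This split uses the mean over the same 6 libraries, so members enter the 9 partly through the group where they are high. The gap between 1.50 and 0.46 is therefore no result about the members. The ratio to the respiratory chain was -0.49 with genes of at least 10 CPM.

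The 476 nuclear features called became 185 with a filter at 50 CPM, where no member remained, 222 on deposited CPM (35 higher, 187 lower) and between 205 and 785 with 1 library left out (251, 217 and 205 without glucose replicates 1, 2 and 3, and 785 without ethanol replicate 3). Centring on the median gave 239 higher and 271 lower. The 3 members called became 0 on deposited CPM, 6 with voom on recovered reads, 1 with the replicate block and 1 to 5 with 1 library left out: 5 without ethanol replicate 1, and MRP8 alone without any of the glucose libraries. MRPS9 changed direction with voom (0.88) and without ethanol replicate 1 (0.38), with a range of -2.17 to 0.38 over libraries left out, and MRP7 on deposited CPM (-0.95), without ethanol replicate 3 (-0.11) and without glucose replicate 1 (-0.04), with a range of -0.11 to 0.34. Libraries with the same number did not deviate together (r of 0.03, -0.03 and 0.05), so these values showed no pairing by number. Counting noise in the shallow ethanol libraries could hide one. With the block, the count of features was 458 and the exact paired p of the share of all members was 0.25, the smallest that 3 pairs allow. Leaving out members that overlap another feature was not run, as there were none. Depth limits single members: in ethanol replicate 1 a read was worth 121 nuclear CPM.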
